A study of Macaca nemestrina with 15 samples.

Results

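The integrated stress response was followed through 10 of its genes in peripheral blood mononuclear cells (PBMCs): the transcription factors *ATF4*, *ATF5* and *DDIT3*, the regulators *TRIB3* and *SESN2*, the enzymes *ASNS*, *PSAT1*, *PHGDH* and *CHAC1*, and the secreted growth factor *VEGFA*. They were chosen by name as genes of the ATF4 pathway that are known to rise on mitochondrial or amino acid stress. All 10 of 10 were found by symbol among the 28865 features of the count table, and 9 of them were among the 12880 features with enough counts for a test. *CHAC1* was not.

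The libraries came from 5 female pig-tailed macaques (*Macaca nemestrina*), named here by their labels Z15228, Z13076, Z15339, Z15303 and Z15408. Each animal gave 1 RNA-seq library before treatment, 1 at week 12 and 1 at week 18, so that there were 15 libraries in 3 groups of 5. All animals received islatravir (ISL), a nucleoside analog that blocks the HIV reverse transcriptase, by mouth at 30 mg/kg once a week for 12 weeks, and the name week 18 places the last sample 6 weeks after the last dose. There was no untreated group, so that treatment and time cannot be told apart. Dates in the library names placed the later samples 56 or 57 and 84 days after the first one, which is earlier than the week 12 and week 18 of the labels. By these dates the later samples of an animal lay less than 6 weeks apart, which is in conflict with 6 weeks off ISL. A figure caption of the study gives a shorter time off ISL, and an earlier week for the last sample, than its methods do. Which of these holds was not resolved. The names of the labels are kept here. Z15339, Z15303 and Z15408 shared their dates, while Z15228 and Z13076 each had dates of their own.

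In the integrated stress response, kinases that sense amino acid shortage, misfolded protein, viral RNA, heme shortage or mitochondrial damage phosphorylate the translation initiation factor eIF2alpha. General translation drops, while the mRNA of *ATF4* is translated more, and ATF4 protein then switches on genes for amino acid supply and, if stress persists, for cell death. ATF4 is regulated to a large extent at translation, which mRNA counts do not show, whereas the mRNAs of its targets are commonly read as the output of the pathway.

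Each library held 5610597 to 10379572 counts (median 8871860) on 15717 to 16556 features. The 2 shallowest libraries were those of Z15303 at week 12 and week 18, with 5610597 and 5886482 counts. Levels are given as CPM, a count scaled to a fixed library size after TMM normalization, and CPM values of different genes are not compared with each other because gene lengths were not at hand. PBMC markers were present in every library, with summed levels of 6 of 6 T-cell markers between 1036 and 1483 CPM and of 6 of 7 monocyte markers between 1833 and 4910 CPM. B-cell markers, 6 of 6 of them, summed to 232.2 to 988.0 CPM before treatment, 133.0 to 500.5 CPM at week 12 and 170.5 to 415.4 CPM at week 18, and were lower than before treatment in 5 of 5 animals at both later time points. No marker of these lists was at 0 in any group. In bulk RNA of this kind, fewer cells of a type and less RNA per cell cannot be told apart.

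No member passed a test between time points. By edgeR's quasi-likelihood test, 0 of 9 tested members had an adjusted p under 0.05, be it at week 12 or at week 18 vs. pre-treatment or in week 18 vs. week 12, where 0.0%, 0.0% and 0.0% of all tested features did. None of the 9 had an unadjusted p under 0.05 in any comparison either, against 1.61%, 1.69% and 0.505% of all tested features. With the animal as a block the count was again 0 of 9 in each comparison, at an adjusted or an unadjusted p under 0.05. Of all tested features, 0.00776% (1 feature, *IGKV1OR2.108*, an immunoglobulin kappa segment named here after its values were seen) passed the adjusted threshold at week 12 and again at week 18 vs. pre-treatment, and 0.0% in week 18 vs. week 12. The unadjusted threshold was passed by 4.69%, 5.85% and 2.17%. DESeq2's Wald test called 0 members in each comparison, with and without the block.

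The upper ends of the intervals bound how large a rise these data leave room for. With the animal as a block, the upper end of the 95% interval was under 2-fold for 8 of 9 members at week 12, 8 of 9 at week 18 and 9 of 9 in week 18 vs. week 12, and it was under 1.5-fold for 7, 7 and 8 of the 9. Without the block it was under 2-fold for 6, 8 and 8 of the 9 and under 1.5-fold for 5, 4 and 4. For falls, the lower end without the block passed a 2-fold fall for *ASNS* at week 12 (0.47-fold) and week 18 (0.49-fold). It also did for *ATF5* in week 18 vs. week 12 (0.47-fold). With the block the lowest was 0.64-fold, for *PSAT1* in week 18 vs. week 12. The median log2 fold change of the 9 members without the block was 0.07 at week 12, 0.04 at week 18 and −0.01 in week 18 vs. week 12, beside 0.00, 0.00 and −0.00 over all features tested. The sizes of the members' differences were small as well, with a median absolute log2 fold change of 0.09, 0.07 and 0.07 in these comparisons against 0.12, 0.12 and 0.09 over all features.

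**Figure D1:**
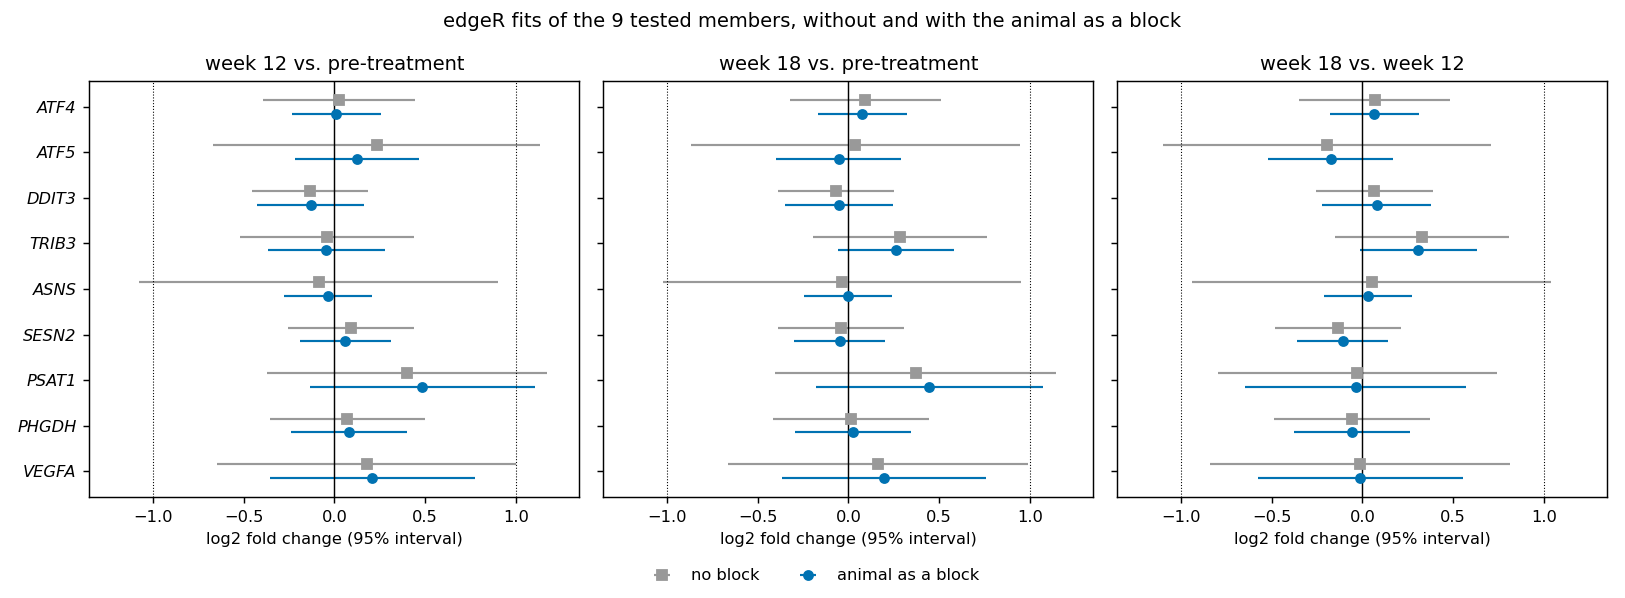
Log2 fold change (x axis) of the 9 tested members (y axis) in the 3 comparisons from edgeR's fits without (grey squares) and with (blue circles) the animal as a block, with bars for the 95% interval and dotted lines at 2-fold. Every interval crosses 0, and *PSAT1* at week 12 has the highest estimate, 0.48 with the block.

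*ATF4* encodes the bZIP transcription factor at the centre of the pathway. Before treatment its level was 332.0 CPM in Z15228, 231.8 in Z13076, 254.9 in Z15339, 305.5 in Z15303 and 198.4 in Z15408, at week 12 it was 239.4, 206.1, 279.9, 386.4 and 235.8 CPM in the same order, and at week 18 it was 273.1, 224.6, 276.4, 404.2 and 233.0 CPM. The groups overlapped throughout, and Z15303 was highest at both later time points. The means were 264.5 ± 54.2, 269.5 ± 70.4 and 282.3 ± 72 CPM (SD, n = 5). The log2 fold change was 0.03 (SE 0.20) at week 12 and 0.09 (SE 0.20) at week 18 without the block. With the block it was 0.01 (SE 0.12) and 0.08 (SE 0.12). Where no fit is named below, log2 fold changes are from the fit without the block, which leaves the pairing by animal out. Within animals, *ATF4* was higher than before treatment in Z15339, Z15303 and Z15408 and lower in Z15228 and Z13076 at both time points. This split follows the sampling dates: the mean change at week 12 was 0.24 on the log2 scale in the 3 animals with shared dates and −0.32 in the other 2, and at week 18 it was 0.25 and −0.16. The part of the dates in these values was not tested.

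*ATF5* encodes a related bZIP factor that, like ATF4, is translated preferentially when eIF2alpha is phosphorylated and that has been tied to the mitochondrial unfolded protein response. Its pre-treatment levels were 10.07 CPM in Z15228, 10.04 in Z13076, 8.12 in Z15339, 19.5 in Z15303 and 15.8 in Z15408, those at week 12 were 9.97, 9.64, 7.95, 33.0 and 14.95 CPM, and those at week 18 were 7.12, 8.67, 8.84, 27.8 and 13.4 CPM. Z15303 was highest and Z15408 next at all 3 time points, and the other 3 animals stayed between 7.12 and 10.07 CPM. At week 12 the level in Z15303 was 0.75 higher on the log2 scale than before treatment, while the other 4 animals were 0.01 to 0.07 lower. The group log2 fold change was 0.23 (SE 0.43) at week 12, and at week 18 it was 0.04 (SE 0.43), or −0.05 (SE 0.16) with the animal as a block.

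The levels of *ATF4* and *ATF5* in Z15303 stood beside a high platelet signal in that animal. The summed level of 5 of 5 platelet markers in Z15303 was 6757, 8132 and 9785 CPM at the 3 time points in order, the highest of the 5 animals each time. Over all animals the sums ranged from 3319 to 6757, from 2886 to 8132 and from 2699 to 9785 CPM at these time points, with 0 of the markers at 0. The animal lowest in *ATF4* was Z15408 before treatment (198.4 CPM) and Z13076 at week 12 (206.1 CPM) and week 18 (224.6 CPM). The platelet sums beside these values were 3476, 7751 and 4057 CPM. For *ATF5*, other animals differed from Z15303. Z15408, next highest in *ATF5* each time, had platelet sums of 3476, 3453 and 2699 CPM. Z15339 had the lowest *ATF5* at week 12, 7.95 CPM, beside a platelet sum of 6890 CPM. The later libraries of Z15303 were also the shallowest. The part of platelets and of depth in the values of Z15303 was not tested.

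*DDIT3* encodes CHOP, the bZIP factor that promotes cell death when stress is not resolved. It was measured at 59.8 CPM in Z15228, 49.9 in Z13076, 44.9 in Z15339, 49.8 in Z15303 and 40.5 in Z15408 before treatment, at 56.0, 33.2, 45.5, 49.6 and 39.2 CPM at week 12, and at 42.5, 57.9, 39.4, 46.6 and 47.5 CPM at week 18. The groups overlapped almost completely, with means of 49.0 ± 7.19, 44.7 ± 8.85 and 46.8 ± 7.0 CPM (SD, n = 5). At week 12 the log2 fold change was −0.13 (SE 0.15), with an interval of 0.73-fold to 1.14-fold. Z13076 had the widest swing, with a change of −0.58 on the log2 scale from pre-treatment to week 12 and of 0.80 from week 12 to week 18. The summed monocyte markers of that animal were 3763, 2354 and 4910 CPM at the 3 time points, and the summed level of 6 of 7 genes that are induced when blood cells are handled was 3139, 2910 and 3670 CPM. In Z15228 the monocyte sums were 3050, 2625 and 4410 CPM, while *DDIT3* was lowest at week 18. From week 12 to week 18, the monocyte sums and *DDIT3* changed in the same direction in Z13076, Z15303 and Z15408. In Z15228 and Z15339 the directions were opposite. From pre-treatment to week 12 they were the same in all animals but Z15408. The part of monocytes and handling in the swing of Z13076 was not tested.

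*TRIB3* encodes a pseudokinase that CHOP and ATF4 induce and that dampens both, and also AKT signalling. Its levels before treatment were 13.2 CPM in Z15228, 23.5 in Z13076, 22.8 in Z15339, 18.5 in Z15303 and 20.0 in Z15408, followed by 17.4, 23.6, 20.2, 11.3 and 22.2 CPM at week 12 and by 15.4, 30.5, 22.6, 20.0 and 30.4 CPM at week 18. The 2 highest values of all were those of Z13076 and Z15408 at week 18, but the other 3 animals lay within the pre-treatment range then. At week 18 *TRIB3* was higher than before treatment in 4 of 5 animals, all but Z15339, in which it was 0.01 lower on the log2 scale. The group difference was 0.28 (SE 0.23) without and 0.26 (SE 0.15) with the block, where the interval ran from 0.96-fold to 1.5-fold (edgeR, adjusted p = 0.871 with the block). In week 18 vs. week 12 it was 0.31 (SE 0.15) with the block (edgeR, unadjusted p = 0.0587, adjusted p = 1.00), the smallest unadjusted p of any member. The handling genes summed to 3139 to 3780 CPM before treatment, 2910 to 3605 CPM at week 12 and 3207 to 4994 CPM at week 18, with 0 of the 6 genes at 0, and at week 18 they were higher than before treatment in the same 4 animals as *TRIB3*, with the highest sum in Z15408. At week 12 these sums and *TRIB3* differed from pre-treatment in opposite directions in Z15228, Z13076, Z15303 and Z15408. In Z15339 both were lower. The part of the handling genes in the *TRIB3* values was not tested.

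*SESN2* encodes sestrin 2, a leucine sensor that restrains mTORC1 and is a target of both ATF4 and p53. It was at 43.0 CPM in Z15228, 52.5 in Z13076, 49.1 in Z15339, 45.4 in Z15303 and 41.8 in Z15408 before treatment, at 36.1, 69.7, 54.2, 36.9 and 50.0 CPM at week 12, and at 37.0, 49.7, 48.9, 41.1 and 48.5 CPM at week 18. At week 12 the animals spread apart, from an SD of 4.41 to one of 13.9 CPM, because Z15228 and Z15303 were lower and the other 3 higher than before treatment, and at week 18 the SD was 5.65 CPM. The log2 fold change was 0.09 (SE 0.16) at week 12 and −0.04 (SE 0.16) at week 18.

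**Figure D2:**
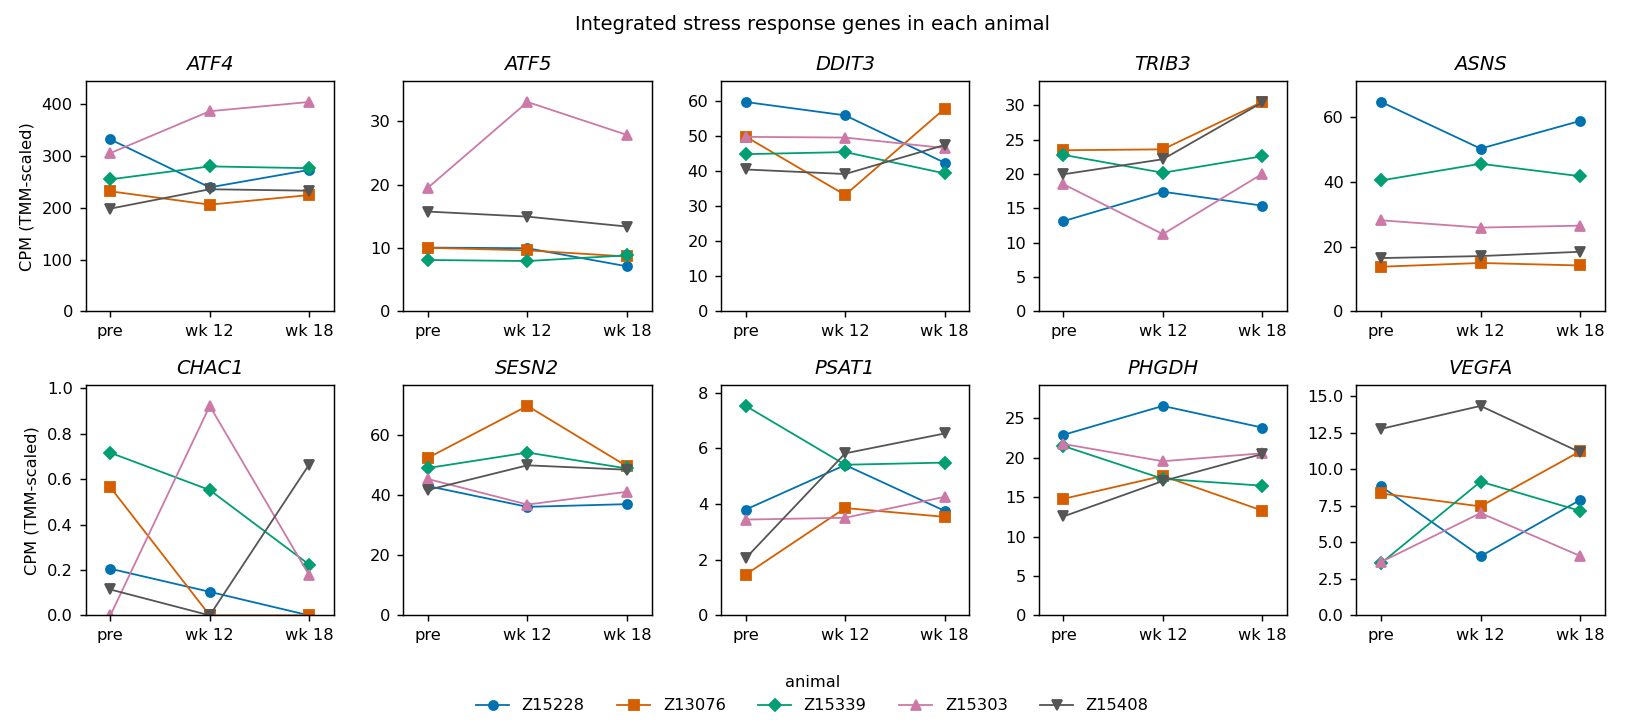
TMM-scaled CPM (y axis, from 0 and with its own scale in each panel) of the 10 genes at the 3 time points (x axis), with 1 line and symbol for each of the 5 animals. The lines of *ASNS* run nearly level and never cross, from 13.8 CPM in Z13076 to 64.5 CPM in Z15228 before treatment, whereas those of *DDIT3* and *VEGFA* cross.

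*ASNS* encodes asparagine synthetase, which makes asparagine from aspartate and glutamine and is a classical target of ATF4. Before treatment its level was 64.5 CPM in Z15228, 13.8 in Z13076, 40.4 in Z15339, 28.1 in Z15303 and 16.4 in Z15408, at week 12 it was 50.2, 14.9, 45.5, 25.8 and 17.1 CPM, and at week 18 it was 58.7, 14.2, 41.7, 26.4 and 18.4 CPM. The animals kept the same order at all 3 time points, and the range of no animal over time reached that of another: Z13076 stayed within 13.8 to 14.9 CPM, Z15408 within 16.4 to 18.4, Z15303 within 25.8 to 28.1, Z15339 within 40.4 to 45.5 and Z15228 within 50.2 to 64.5. The geometric mean CPM of the highest animal was 3.98-fold that of the lowest. Between time points the estimates for *ASNS* were close to 0, with a log2 fold change of −0.04 (SE 0.11) at week 12 and of −0.00 (SE 0.12) at week 18 with the animal as a block, and intervals of 0.83-fold to 1.15-fold and of 0.84-fold to 1.18-fold. Without the block the SE was 0.47 at both time points, and the intervals reached 1.87-fold and 1.93-fold.

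Such an order was rare in these data. An identical order of the 5 animals at all 3 time points was found for 1 of 9 members, *ASNS*, and for 0.466% of all tested features (60), and ranges without overlap between animals for 1 of 9 members, again *ASNS*, and for 0.0854% (11). The pre-treatment order of *ASNS* was also that of the summed B-cell markers, 988.0 CPM in Z15228, 646.5 in Z15339, 430.9 in Z15303, 326.2 in Z15408 and 232.2 in Z13076. Those markers were lower at week 12 and week 18 in 5 of 5 animals, with median log2 fold changes of −0.86 and −0.93. *ASNS* was higher than before treatment in 3 of 5 animals at each of these time points. The order of the B-cell sums did not keep to that of *ASNS* then. At week 12 the sum was 293.9 CPM in Z15303 and 288.1 in Z15339, and at week 18 it was 223.8 in Z15408 and 210.2 in Z15303. The part of B cells in the differences of *ASNS* between animals was not tested.

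*PHGDH* and *PSAT1* encode the enzymes of the first and the following step of serine synthesis from a glycolytic intermediate. *PHGDH* was at 22.9 CPM in Z15228, 14.8 in Z13076, 21.5 in Z15339, 21.8 in Z15303 and 12.6 in Z15408 before treatment, at 26.6, 17.7, 17.3, 19.6 and 17.1 CPM at week 12, and at 23.8, 13.3, 16.5, 20.6 and 20.5 CPM at week 18. Z15228 was the highest at each time point, and the group difference was 0.07 (SE 0.20) at week 12 and 0.02 (SE 0.20) at week 18 on the log2 scale. *PSAT1* was low, with 13 to 63 counts per library. Its pre-treatment levels were 3.80 CPM in Z15228, 1.47 in Z13076, 7.52 in Z15339, 3.44 in Z15303 and 2.06 in Z15408, its levels at week 12 were 5.40, 3.85, 5.41, 3.51 and 5.82 CPM, and those at week 18 were 3.76, 3.54, 5.49, 4.26 and 6.53 CPM.

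*PSAT1* had the largest estimated difference of the members, 0.40 (SE 0.36) at week 12 and 0.37 (SE 0.37) at week 18, or 0.48 (SE 0.29) and 0.45 (SE 0.30) with the block. At week 12 it was higher in 4 of 5 animals, by 1.26 in Z13076 and by 1.40 in Z15408 on the log2 scale but by 0.03 in Z15303, and it was lower by 0.46 in Z15339. The pre-treatment values of the animals with the highest changes rested on 13 and 18 counts. The 95% interval with the block ran from 0.91-fold to 2.15-fold at week 12, the only one beside that of *PSAT1* at week 18 (0.88-fold to 2.10-fold) to reach 2-fold (edgeR, adjusted p = 0.982 at week 12 and 0.895 at week 18).

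*CHAC1* encodes an enzyme that degrades glutathione and is among the targets that ATF4 and CHOP induce. It had 2, 5, 6, 0 and 1 counts before treatment in the order of the animals used above, 1, 0, 5, 5 and 0 counts at week 12 and 0, 0, 2, 1 and 6 counts at week 18. Over the 5 libraries of a group these were 14, 11 and 9 counts. In the 5 libraries without a count, 3 counts would have been 0.301 to 0.388 CPM, which is the limit that a count of 0 allows, for counting error only. The groups overlapped, and at such counts a small difference in *CHAC1* could not be seen.

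*VEGFA* encodes a secreted growth factor of blood vessels that ATF4 induces, as does hypoxia. It was at 8.83 CPM in Z15228, 8.35 in Z13076, 3.58 in Z15339, 3.66 in Z15303 and 12.8 in Z15408 before treatment, at 4.05, 7.47, 9.16, 7.01 and 14.35 CPM at week 12, and at 7.90, 11.2, 7.17, 4.08 and 11.2 CPM at week 18. Its changes within animals went in opposite directions, from −1.08 in Z15228 to 1.30 in Z15339 on the log2 scale at week 12. The group difference was 0.18 (SE 0.39) at week 12 and 0.17 (SE 0.39) at week 18. At week 12 the mean change was 0.79 in the 3 animals with shared dates and −0.62 in the other 2. The summed platelet markers were 2886 CPM at week 12 against 6375 before treatment in Z15228, 7751 against 3319 in Z13076, 6890 against 5143 in Z15339, 8132 against 6757 in Z15303 and 3453 against 3476 in Z15408. They and *VEGFA* differed from pre-treatment in the same direction in Z15228, Z15339 and Z15303 and in opposite directions in Z13076 and Z15408. The part of the dates and of platelets in these changes was not tested.

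None of the 9 tested members moved in the same direction in all animals. Of all tested features, 2.21% were higher and 3.45% lower in 5 of 5 animals at week 12 vs. pre-treatment, 3.04% and 3.49% at week 18 vs. pre-treatment, and 2.97% and 2.87% in week 18 vs. week 12, against 0 of 9 members in each case. An exact two-sided sign-flip test over the 5 animals, which cannot give a p below 0.063 with 5 animals, gave its smallest p of 0.125 for *TRIB3* at week 18 vs. pre-treatment, and every p was 1.00 after adjustment over the members and comparisons. How many members were higher differed from animal to animal. Of the 9 members, 3 to 7 were higher than before treatment at week 12 and 2 to 7 at week 18, with the fewest in Z15228 and the most in Z15408 at both time points. The median change of the 9 was −0.09 in Z15228 and 0.16 in Z15408 at week 12, and −0.16 and 0.23 at week 18. Over all features the medians were −0.01 and −0.03 at week 12 and −0.01 and −0.04 at week 18 in these animals.

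**Figure D3:**
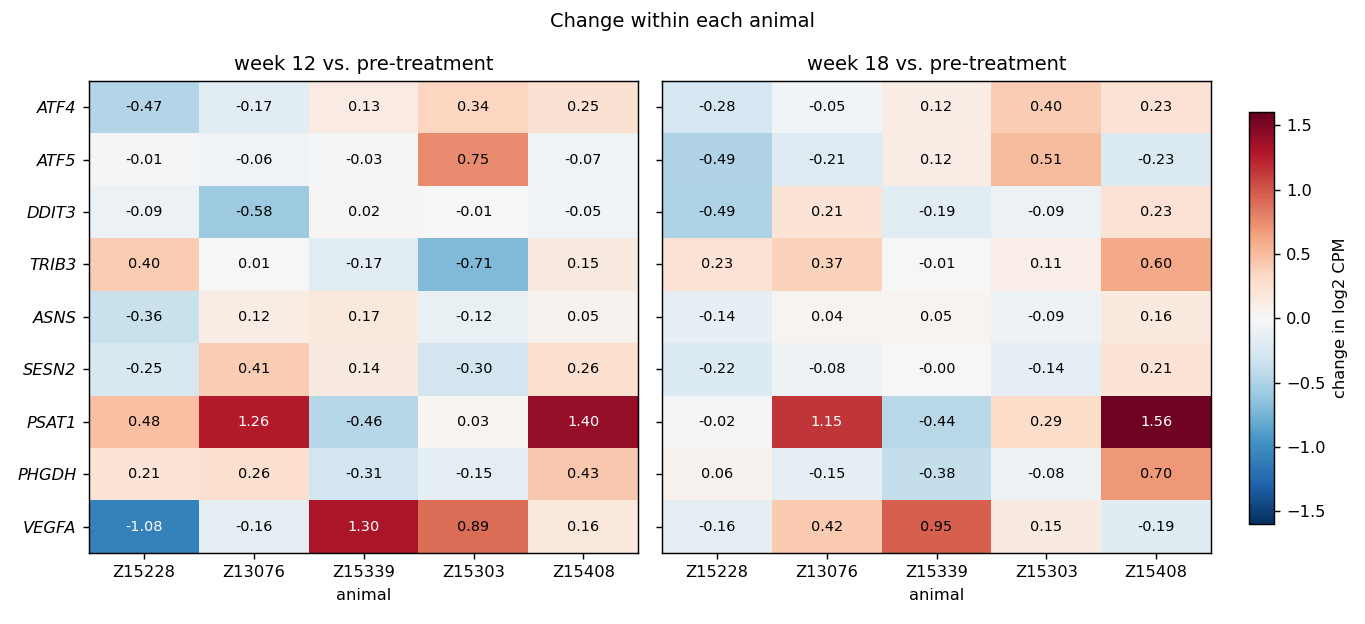
Change in log2 CPM against pre-treatment of the 9 tested members (rows) in each of the 5 animals (columns) at week 12 and at week 18, printed in the cells and coloured red for higher and blue for lower. Each row holds both signs, and the largest values are those of *PSAT1* and *VEGFA*, up to 1.56 and 1.30.

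For each tested member, the share of the variation between animals was larger than the share between time points. These shares were sums of squared deviations, not scaled for the number of animals or of time points. There were more animals than time points, so chance alone gives animals the larger share on average. A median of 65.9% of the variation of a member in log2 CPM lay between animals and 2.73% between time points, against 51.9% and 6.23% over all tested features, whose middle range between quartiles for the share between animals was 35.6% to 67.9%. *ASNS* had 98.7% of its variation between animals, the 9th highest share of the 12880 features, and *ATF5* had 91.7%. *ATF4* followed with 79.3%, *SESN2* with 68.9%, *PHGDH* with 65.9%, *TRIB3* with 63.2% and *VEGFA* with 59.5%. *PSAT1* with 39.6% and *DDIT3* with 25.4% were below the median of all features. For *PSAT1*, 20.0% of the variation lay between time points, the highest share of the members. For *PSAT1* and *DDIT3*, the unscaled shares do not show that animals differed more than time points.

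A test of the animal term in the blocked fit by edgeR, added after these values were seen, called 6 of 9 members at an adjusted p under 0.05, where 30.9% of all tested features were called. The 6 were *ASNS* (adjusted p = 7.14e-08), *ATF5* (adjusted p = 2.13e-05), *ATF4* (adjusted p = 0.00556), *TRIB3* (adjusted p = 0.0230), *VEGFA* (adjusted p = 0.0326) and *SESN2* (adjusted p = 0.0476). *PHGDH* (edgeR, adjusted p = 0.0620), *PSAT1* (0.168) and *DDIT3* (0.527) were not called. The animals also differed in sampling dates and in the summed markers of cell types, and with 1 library per animal and time point these cannot be told apart from the animal.

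**Figure D4:**
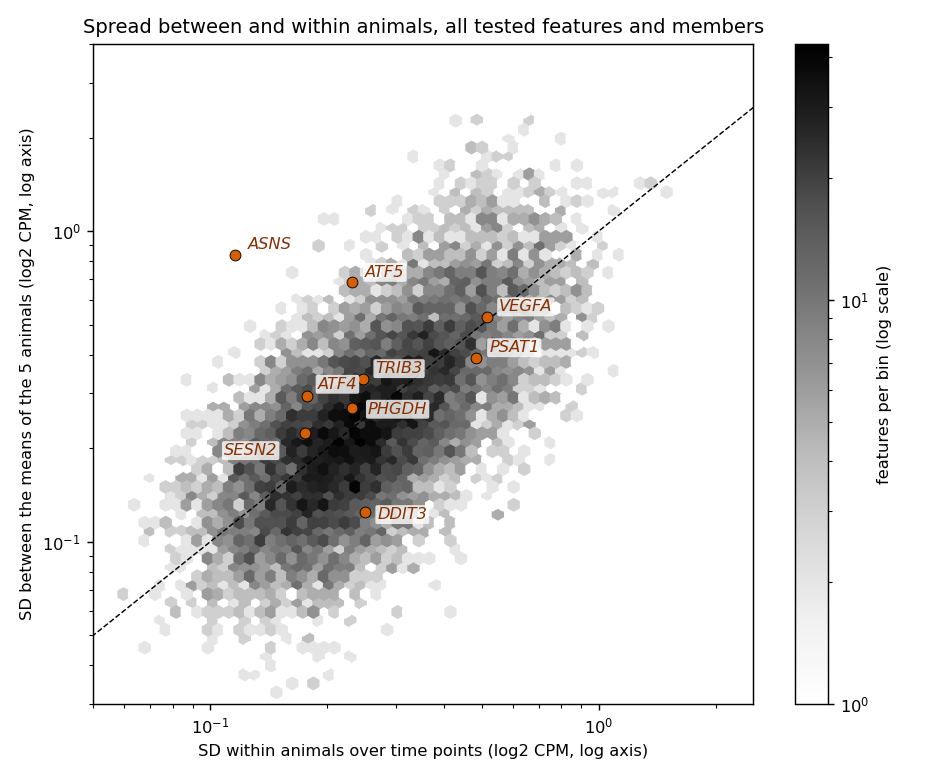
SD between the means of the 5 animals (y axis) against the residual SD within animals (x axis), both in log2 CPM on log axes. The residual SD is what remains over the 3 time points after the means of animals and of time points are taken out. It leaves out the mean change over time. Shown are all 12880 tested features (grey bins, darker for more features) and the 9 tested members (orange points). *ASNS* lies apart at 0.84 against 0.12 and *ATF5* at 0.68 against 0.23, while *DDIT3* and *PSAT1* lie below the dashed line of equal SD.

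The other genes of the pathway were read from 10 lists of 128 genes, of which 111 were tested. None of them was called by edgeR in any comparison, with or without the block, nor by DESeq2's Wald test. At an unadjusted p under 0.05 without the block, 0 were higher and 1 was lower at week 12, 4 were higher and 1 lower at week 18, and 1 was higher and 1 lower in week 18 vs. week 12, counting a gene of several lists in each. With the block these were 0 and 4, 6 and 1, and 1 and 1. Of all tested features, 1.61%, 1.69% and 0.505% passed this threshold without the block and 4.69%, 5.85% and 2.17% with it. List medians ran from −0.13 to 0.17 at week 12 and from −0.11 to 0.16 at week 18 on the log2 scale. The median over all tested features was 0.00 at both.

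Upstream of ATF4, the kinases of eIF2alpha and their activators had median log2 fold changes close to 0, at 0.07 (week 12) and 0.00 (week 18) over 7 genes. At week 12 the lowest unadjusted p of these was that of *OMA1*, the mitochondrial protease that relays mitochondrial stress to this pathway, with medians of 13.5 CPM before treatment and 16.1 CPM at week 12 and a log2 fold change of 0.26 (SE 0.14). *EIF2AK2*, which encodes the kinase PKR that binds double-stranded RNA, stood at −0.29 (SE 0.20) at week 18. The 12 tested genes of eIF2, eIF2B and the eIF2alpha phosphatase had medians of −0.01 (week 12) and 0.03 (week 18). Of the 12, 6 were above 0 at week 12 and 7 at week 18. *PPP1CB*, a catalytic subunit of the phosphatase that reverses eIF2alpha phosphorylation, had the lowest unadjusted p of this list at both time points. *PPP1CB* was lower than before treatment in 5 of 5 animals at both, as were 3.45% of all tested features at week 12 and 3.49% at week 18. It went from 212.8, 127.2, 186.8, 193.4 and 220.9 CPM to 151.5, 106.2, 158.3, 178.1 and 127.6 CPM at week 18, where the log2 fold change was −0.38 (SE 0.17), with an adjusted p of 1.00 in edgeR without and 0.433 with the block. The groups overlapped.

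Among the bZIP factors that pair with ATF4 or act beside it, 11 were tested, with medians of −0.13 at week 12 and 0.06 at week 18. *ATF3*, a stress-induced repressor downstream of ATF4, was lower in 5 of 5 animals at week 12, with 11.9, 16.1, 12.1, 18.0 and 16.9 CPM before treatment and 9.86, 8.79, 11.4, 10.9 and 13.5 CPM then. The log2 fold change was −0.46 (SE 0.18) (edgeR, adjusted p = 1.00 without and 0.696 with the block), and at week 18 its levels of 11.8 to 19.6 CPM covered the pre-treatment range. Of all tested features, 3.45% were lower in 5 of 5 animals at week 12, and 3.04% were higher in 5 of 5 at week 18. *CEBPD*, a factor of inflammatory and myeloid gene expression, was higher in 5 of 5 animals at week 18, with 168.6, 168.4, 104.7, 179.2 and 152.5 CPM before treatment and 216.6, 241.5, 188.9, 214.6 and 231.7 CPM at week 18. The groups did not overlap, which held for 0.132% of all tested features in this direction, for 0 of 9 members, and by the same values for *PSPH* described below. *ATF3*, *CEBPD* and *PSPH* were named for the lowest unadjusted p of their lists at the time points given. The shares over all features do not allow for that choice. The log2 fold change of *CEBPD* was 0.50 (SE 0.18) (edgeR, adjusted p = 1.00 without and 0.493 with the block). The monocyte markers stood beside it, with 5 of 6 above 0 in log2 fold change at week 18 and a median of 0.34, and with sums of 1833 to 3763 CPM before treatment and 2215 to 4910 CPM at week 18. The monocyte sum was higher than before treatment in all animals but Z15303, where it was 2533 CPM at week 18 against 3046 CPM. The part of monocytes in the *CEBPD* values was not tested.

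Of the targets for amino acid supply, 9 amino acid transporters had medians of −0.11 at both week 12 and week 18, and 12 aminoacyl-tRNA synthetases had medians of −0.02 and −0.05. *SLC38A1*, a glutamine transporter, was lower in 3 of 5 animals at week 12 and at week 18, with log2 fold changes of −0.17 (SE 0.15) and −0.22 (SE 0.15). Of the synthetases, *WARS*, for tryptophan, stood at −0.29 (SE 0.16) at week 12 and *CARS*, for cysteine, at 0.13 (SE 0.10) at week 18. The 10 tested enzymes of serine, glycine, one-carbon, proline and transsulfuration metabolism had medians of −0.02 and 0.03. *PSPH*, whose product completes serine synthesis after PHGDH and PSAT1, was higher in 5 of 5 animals at week 18. The same held for 3.04% of all tested features. *PSPH* levels were 5.44, 5.64, 5.61, 6.55 and 6.39 CPM before treatment and 6.60, 8.54, 7.39, 9.22 and 7.53 CPM at week 18. Its groups did not overlap, and its log2 fold change was 0.40 (SE 0.18) (edgeR, adjusted p = 1.00 without and 0.825 with the block).

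The 13 tested other targets of ATF4 had the highest list medians, 0.17 at week 12 and 0.16 at week 18. Of the 13, 9 were above 0 at week 12 and 10 at week 18. The median change of the list within an animal ran from −0.08 to 0.33 at week 12 and from 0.05 to 0.31 at week 18. Single estimates at week 18 ran from −0.33 to 0.88. In edgeR, 2 of the 13 without and 4 with the block had an unadjusted p under 0.05 at week 18, all higher. At week 12 there were 0. Of all tested features, 1.69% and 5.85% passed at week 18. *SQSTM1*, an autophagy receptor, stood at 0.20 (SE 0.10) at week 12 and *BBC3*, a death gene of the BCL2 family, at 0.36 (SE 0.14) at week 18, each higher in 4 of 5 animals. In the neighbouring stress programmes the medians were −0.06 and −0.10 for 17 genes of the endoplasmic reticulum, of which 14 were below 0 at each time point, and 0.02 and 0.04 for 8 mitochondrial chaperones and proteases. *DNAJB9*, an endoplasmic reticulum co-chaperone, stood at −0.17 (SE 0.18) at week 12, and *SYVN1*, a ligase of protein degradation there, at −0.19 (SE 0.13) at week 18. For the mitochondrial list, the chaperone *HSPA9* stood at −0.11 (SE 0.10) at week 12 and the protease *HTRA2* at 0.15 (SE 0.12) at week 18. The 13 tested hypoxia targets beside *VEGFA* had medians of −0.06 and −0.05, with the peptide hormone *ADM* at −0.79 (SE 0.44) at week 12 and the *VEGFA* relative *VEGFB* at −0.48 (SE 0.30) at week 18.

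**Figure D5:**
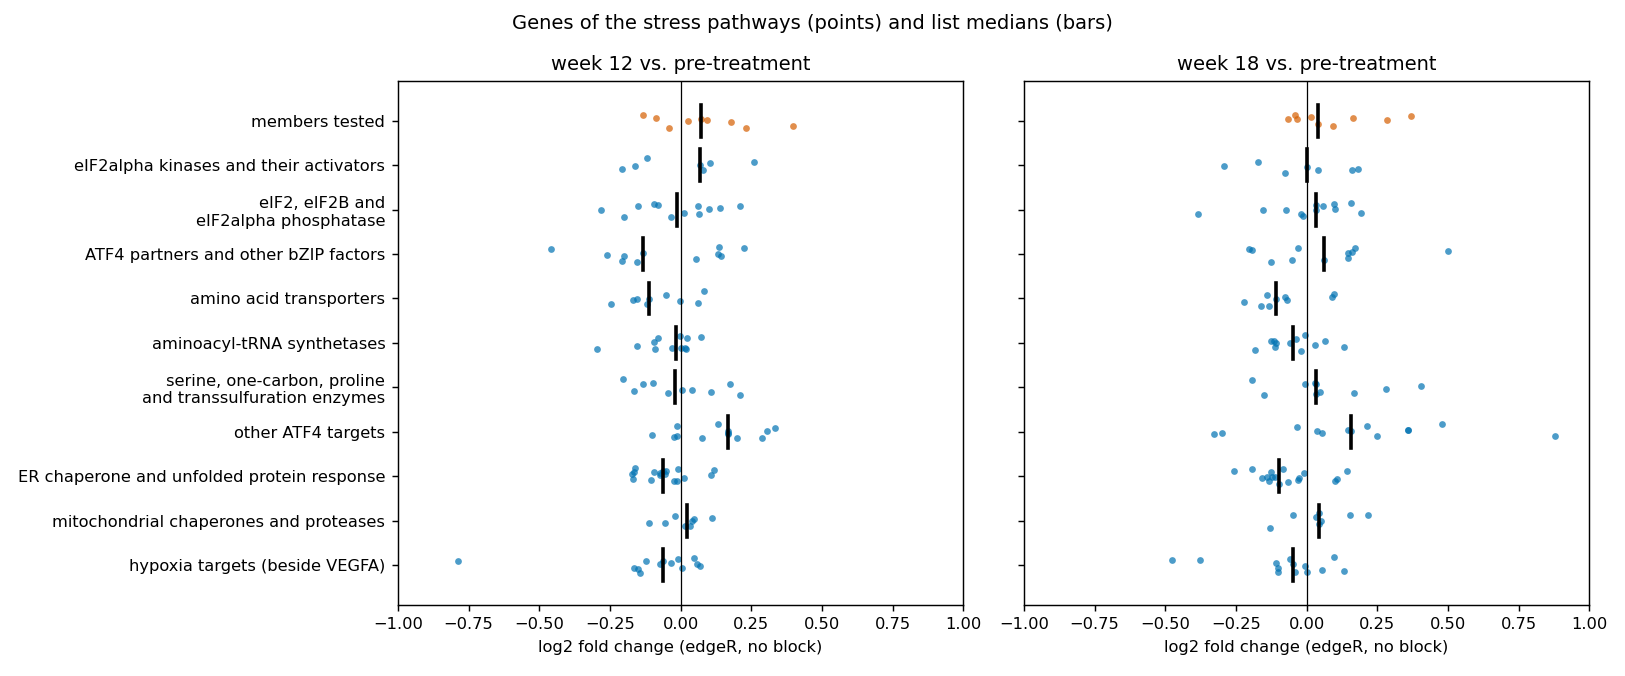
Log2 fold change (x axis, edgeR without the block) of the 9 tested members (orange) and of each tested gene of the 10 pathway lists (blue) at week 12 and week 18 vs. pre-treatment, with a black bar at the median of each list. The medians lie between −0.13 and 0.17, and no single gene was called.

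The courses of the members over time were also set beside each other. After the mean of its own animal was taken from each log2 CPM, the correlation of a member with the mean of the others over the 15 libraries ran from −0.23 for *VEGFA* to 0.49 for *ATF4*, with 0.39 for *ASNS* and 0.30 for *PSAT1*. The genes outside the members whose course was most like the mean of the members, among 10764 with a symbol, were *ARPC1B* (r = 0.946), *BSCL2* (r = 0.912), *CYHR1* (r = 0.908), *RPP30* (r = 0.900) and *ARIH2OS* (r = 0.896). *ARPC1B* encodes a subunit of the actin-nucleating Arp2/3 complex, and its log2 fold change was 0.14 at week 12 and 0.16 at week 18. These are the highest of many values over 15 libraries that share animals, sampling dates and library depth.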

How the data were processed

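PBMC RNA of 5 macaques at 3 time points was analysed. The authors amplified total RNA with SMART-Seq v4, made Nextera XT libraries, aligned reads with STAR 2.7.9a to the *M. nemestrina* genome with Ensembl annotation, and deposited raw counts per gene from the GeneCounts option. The strand setting is not given in the sources used here. The counts were tested as deposited in R 4.3.3 with edgeR 4.0.16 (TMM, filterByExpr with a minimum count of 10, quasi-likelihood F test, 1 fit of the 15 libraries, time point alone as factor). P-values were adjusted by Benjamini-Hochberg over all 12880 features tested, with calls at an adjusted p under 0.05. SEs were derived from the size of the log2 fold change and its F value. A prior count of 2 was used for log2 CPM.

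Samples were paired by the animal labels, and the block is the animal. Deviations from the group means correlated at 0.551 on average (0.351 to 0.683) over 15 pairs of libraries of the same animal and at −0.137 between animals. The biological coefficient of variation was 29.3% without and 16.9% with the block. Each animal gave 1 library per time point. Depth was 5610597 to 10379572 counts, so intervals on genes of low counts, such as *PSAT1* (13 to 63 counts), are wide.

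Members and lists were chosen with earlier results of these data known. Named were all members, the list gene with the lowest unadjusted p of each list at week 12 and at week 18 and any called (for a gene that leads at 1 time point, values at the other may stand beside it), and the 5 genes of most similar course. The alternatives were DESeq2 1.42.0 and its size factors, the block, library size without TMM, no filter and a minimum count of 30, a prior count of 0.5, each animal left out, and only the animals with shared dates. The fits were tested on simulated data. No set test was run. Gene positions, lengths and sequences were not used here.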

Additional observations from a re-analysis of the deposited data

Results flagged for a closer look

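For each member, the 5 values of a group, in CPM, and the 5 within-animal changes were searched for a value far from the others, which was marked when its gap to the nearest other value exceeded 0.71 of the whole range. Of 60 such groups of 5 values, 5 were marked, and chance alone marks about 5% of them. *ATF4* in Z15303 at week 18 was the highest at 404.2 CPM, while the other 4 animals lay between 224.6 and 276.4 CPM. *ATF5* in Z15303 at week 12 was the highest at 33.03 CPM, and its change from pre-treatment in that animal was the highest at 0.75 on the log2 scale, with the other animals at −0.07 to −0.01. The change of *DDIT3* from pre-treatment to week 12 was the lowest in Z13076, at −0.58, with the other animals at −0.09 to 0.02. *PHGDH* in Z15228 at week 12 was the highest at 26.58 CPM, with the other animals at 17.05 to 19.56 CPM. No explanation of these values was tested.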

How the results depend on the processing

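No alternative called a member in any comparison. Over all features, the animal block gave 1 call at week 12 and 1 at week 18 vs. pre-treatment in edgeR, DESeq2's Wald test gave 1 at week 12, and DESeq2 with the block gave 27 at week 12, 43 at week 18 and 1 in week 18 vs. week 12, against 0 in edgeR without the block. The block changed no other call. Since no member was called, the signs below carry no call, and their causes were not tested. *ATF5* at week 18 turned to −0.052 with the block in edgeR and −0.046 in DESeq2. With only the animals of shared dates, week 12 values were 0.00151 for *DDIT3*, 0.072 for *ASNS* and −0.039 for *PHGDH*, week 18 values were 0.042 for *ASNS* and 0.040 for *SESN2*, with a member median of 0.19, and week 18 vs. week 12 values were −0.0068 for *DDIT3*, −0.031 for *ASNS*, 0.14 for *PSAT1* and 0.094 for *PHGDH*.

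Leaving out each animal in turn moved the member median over −0.00074 to 0.17 at week 12, the highest without Z15228. The log2 fold changes whose sign turned then ranged at week 12 over −0.071 to 0.17 for *ATF4*, −0.037 to 0.32 for *ATF5*, −0.12 to 0.081 for *TRIB3*, −0.18 to 0.076 for *ASNS*, −0.015 to 0.18 for *SESN2* and −0.022 to 0.44 for *VEGFA*. At week 18 they ranged over −0.0059 to 0.21 for *ATF4*, −0.20 to 0.13 for *ATF5*, −0.15 to 0.055 for *DDIT3*, −0.059 to 0.039 for *ASNS*, −0.10 to 0.0054 for *SESN2* and −0.13 to 0.12 for *PHGDH*. In week 18 vs. week 12 they ranged over −0.11 to 0.19 for *DDIT3*, −0.037 to 0.12 for *ASNS*, −0.098 to 0.089 for *PSAT1*, −0.13 to 0.013 for *PHGDH* and −0.18 to 0.14 for *VEGFA*. In all, 32 of the single-member values changed sign and 319 did not. *PSAT1* kept its sign at week 12, over 0.18 to 0.79. The list median at week 12 moved to −0.042 for mitochondrial chaperones and proteases without Z15228 and to −0.13 for hypoxia targets without Z15303. *CHAC1*, with 0 to 6 counts per library, did not pass the filter on low counts.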
